A study of Mus musculus with 60 samples.

Results

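The genes described here are 43 genes of the extracellular matrix, named as a list of gene symbols: 6 fibrillar collagens, 9 basement membrane genes, 6 network and fibril-associated collagens, 12 glycoproteins, proteoglycans and elastic fibre genes, 7 genes of collagen crosslinking and folding, and 3 genes of matrix turnover. All 43 symbols were found in each of the 4 deposited tables, which list 54343 symbols. The study measured polyadenylated RNA in bulk liver and inguinal white adipose tissue (a subcutaneous fat depot) of diet-induced obese mice by strand-specific RNA sequencing. Each of 2 mouse lines contributed 3 groups of 5 libraries per tissue, 60 libraries in all, titled as biological replicates. In the Glp1r line the groups were floxed mice (Glp1rfl/fl) given vehicle, floxed mice given mGIPR-Ab/P1, and knockout mice (Glp1rWnt1-/-) given vehicle. In the Gipr line they were Giprfl/fl mice given vehicle, Giprfl/fl mice given mGIPR-Ab/P1, and GiprSyn-/- mice given vehicle. The agent mGIPR-Ab/P1, called the conjugate below, joins an antibody to the GIP receptor with a GLP-1 receptor peptide. The series title frames the question as whether receptors of the central nervous system are needed for the conjugate's effect on body weight. No group of knockout mice given the conjugate was analysed here, so the comparisons cover the conjugate in floxed mice and the knockout under vehicle. All groups were made obese by diet, and the labels used here give no age, sex, dose or time. Wnt1 and Syn denote drivers that act in cells of neural origin, so bulk liver or fat offers no check of the deletions. P-values set each difference between groups against the spread between libraries within the groups.

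Collagens are triple-helical proteins that give tissue its tensile strength. Fibrillar collagens form the fibres, type IV collagen and laminins form the sheet-like basement membrane around each adipocyte and vessel, and type VI collagen links that sheet to the fibres. New chains are hydroxylated and folded with the help of prolyl and lysyl hydroxylases and the chaperone encoded by Serpinh1, and are cross-linked outside the cell by lysyl oxidases. Metalloproteinases and their inhibitors govern turnover. Obese adipose tissue is known for a remodelled, collagen-rich matrix, and in liver the fibrillar collagens are made mainly by hepatic stellate cells.

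The sequences directly upstream of 6 genes whose levels are followed below are shown because these genes carry most of the account: 2 fibrillar collagens, a type VI collagen chain, a basement membrane collagen and 2 matricellular genes. Each run is the 250 bases before the RefSeq start of the gene in build GRCm38.p6, 5′ to 3′ on the strand of the gene, with matches to the searched motifs in capitals.
Col1a2, chr6:4505368-4505617, plus strand: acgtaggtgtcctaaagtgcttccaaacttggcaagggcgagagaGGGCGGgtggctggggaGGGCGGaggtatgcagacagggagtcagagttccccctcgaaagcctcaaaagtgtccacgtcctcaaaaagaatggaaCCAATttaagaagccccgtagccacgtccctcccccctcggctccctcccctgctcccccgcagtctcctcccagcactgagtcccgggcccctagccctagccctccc
Col3a1, chr1:45311288-45311537, plus strand: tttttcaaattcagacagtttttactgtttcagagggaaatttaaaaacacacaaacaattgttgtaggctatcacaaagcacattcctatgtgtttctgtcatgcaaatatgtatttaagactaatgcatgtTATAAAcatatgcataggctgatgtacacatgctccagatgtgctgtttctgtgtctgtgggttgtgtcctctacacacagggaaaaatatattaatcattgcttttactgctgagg
Col6a3, chr1:90843972-90844221, minus strand: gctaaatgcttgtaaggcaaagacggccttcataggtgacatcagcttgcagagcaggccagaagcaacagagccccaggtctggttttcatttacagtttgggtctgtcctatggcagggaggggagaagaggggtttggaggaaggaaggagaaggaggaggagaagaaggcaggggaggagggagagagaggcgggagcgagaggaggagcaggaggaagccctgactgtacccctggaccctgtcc
Col15a1, chr4:47207762-47208011, plus strand: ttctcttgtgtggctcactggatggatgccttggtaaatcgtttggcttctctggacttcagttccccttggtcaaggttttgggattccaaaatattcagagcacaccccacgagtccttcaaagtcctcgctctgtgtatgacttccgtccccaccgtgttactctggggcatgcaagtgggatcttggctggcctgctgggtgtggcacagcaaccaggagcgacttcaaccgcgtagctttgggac
Postn, chr3:54359017-54359266, plus strand: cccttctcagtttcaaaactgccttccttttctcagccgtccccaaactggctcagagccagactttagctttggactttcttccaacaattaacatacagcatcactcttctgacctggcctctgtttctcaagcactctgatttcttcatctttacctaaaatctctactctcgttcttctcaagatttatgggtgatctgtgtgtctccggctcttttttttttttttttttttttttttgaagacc
Thbs2, chr17:14694263-14694512, minus strand: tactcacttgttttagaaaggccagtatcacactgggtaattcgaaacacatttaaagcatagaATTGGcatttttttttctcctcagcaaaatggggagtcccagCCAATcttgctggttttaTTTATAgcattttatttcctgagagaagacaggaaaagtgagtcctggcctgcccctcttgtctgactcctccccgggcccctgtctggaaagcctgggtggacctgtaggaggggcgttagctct

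4 motifs were searched on both strands: the TATA box letters TATAAA, the CCAAT box, the GC box spelled GGGCGG, and the AP-1 site spelled TGANTCA. Col1a2 held a CCAAT match 109 bases before the start and GGGCGG matches 205 and 188 bases before it. Col3a1 held TATAAA 117 bases before the start. Thbs2 held TATAAA on the opposite strand 126 bases before the start, and CCAAT 186 bases before it on the opposite strand and 144 bases before it on the gene's own strand. The windows of Col6a3, Col15a1 and Postn held none of these letters. Windows were found for 26 of the 43 genes, some with more than 1 start, giving 29 windows. GGGCGG stood in 19 of these 29 windows (65.5%), against 32.7% of the 32817 windows of all genes. TATAAA stood in 3 (10.3%, against 12.4%), CCAAT in 10 (34.5%, against 33.8%) and TGANTCA in 1 (3.45%, against 6.75%). A match is a description of letters and not a binding site. In the same build the starts of Col4a1 (chr8, base 11312826) and Col4a2 (chr8, base 11312805) lie 21 bases apart on opposite strands. Col3a1 neighbours Col5a2, Col6a2 neighbours Col6a1, and Dcn neighbours Lum.

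Levels are FPKM, fragments per kilobase of transcript scaled to the depth of the library. Estimated depth was 29.9 to 64.4 Mfragments (mega-fragments) per library in fat and 31.7 to 57.2 Mfragments in liver. Adipoq, an adipocyte hormone, was at 1010 to 2890 FPKM in the 30 fat libraries and 0 to 3.36 in the 30 liver libraries, and albumin (Alb) at 20700 to 39600 in liver and 2.56 to 207 in fat. Glp1r reached at most 0.0907 FPKM in fat and 0.356 in liver. Gipr was at 2.16 to 7.46 FPKM in fat and at most 0.0149 in liver. In fat of the Gipr line its mean was 6.15 FPKM under vehicle (5.02 to 7.46), 5.13 with the conjugate (3.57 to 6.57) and 4 in the knockout (2.57 to 5.37). These ranges overlapped and are given without a test. In these bulk samples fewer cells of a type and less RNA per cell cannot be told apart.

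In vehicle-treated floxed mice of both lines (10 libraries per tissue), 40 of the 43 matrix genes had a higher mean level in fat than in liver, with a median ratio of 39.7. Liver and fat tables were normalized separately, so these levels are set side by side without a test. The most abundant in fat were Sparc, a collagen-binding glycoprotein, at 3640 FPKM, Col3a1 at 548, the proteoglycan gene Dcn at 443, Col4a1 at 391 and Serpinh1 at 324. The lowest in fat were Col8a1 at 3.04, Col12a1 at 3.69, Plod2 at 4.78 and Timp1 at 5.04. Fat had 38 of the 43 at 10 FPKM or more, and liver had 8. Liver had the higher mean for 3 genes: fibronectin (Fn1, 186 against 78.2), Col18a1 (158 against 61.8), which encodes the precursor of endostatin, and Col14a1 (12.1 against 9.81). The libraries of the 2 tissues overlapped widely for Col14a1 (6.73 to 19.2 FPKM in liver, 3.19 to 18.5 in fat). For Fn1 they overlapped in part (130 to 243 and 28.8 to 164). The ratios were largest for the crosslinking enzyme gene Lox (448), for Mfap5 (391), a microfibril gene, and for Col15a1 (128). The paired type IV genes Col4a1 and Col4a2 stayed at a ratio of 1.18 to 1.62 in the 30 fat libraries, while Col4a1 itself varied 4.01-fold and Col4a2 5.14-fold.

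**Figure D1:**
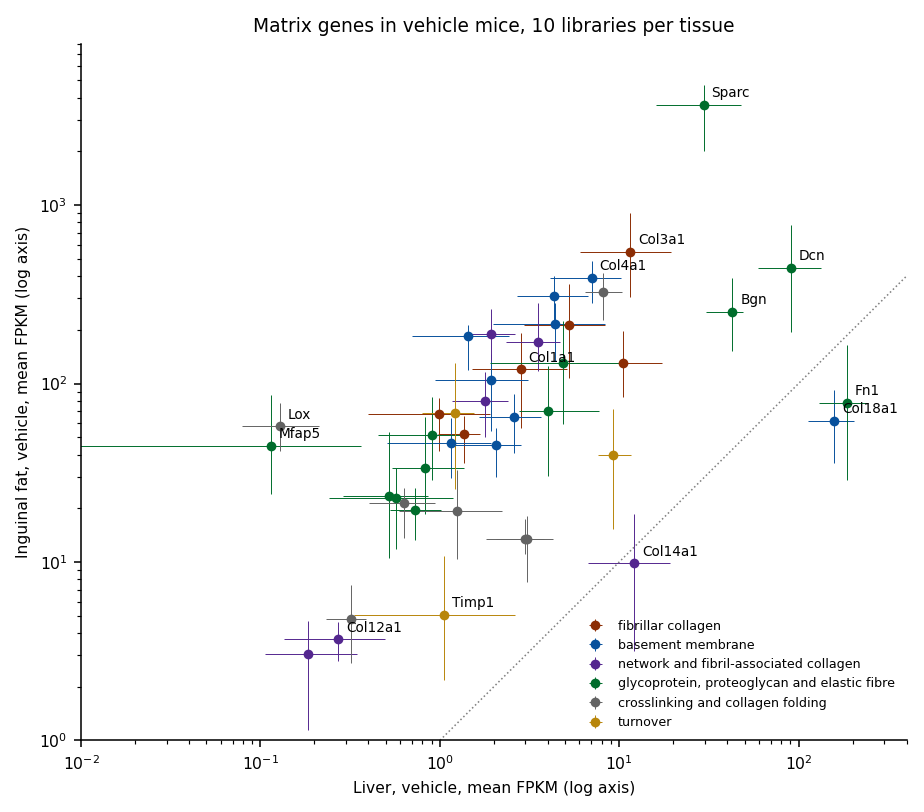
Mean FPKM of each of the 43 matrix genes in vehicle-treated floxed mice, liver on the horizontal and inguinal fat on the vertical axis (both log scales, 10 libraries per tissue; bars run from the lowest to the highest library, and the dotted line marks equal levels). Points above the line, 40 of 43, had the higher mean in fat, and Fn1, Col18a1 and Col14a1 lie below it.

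In inguinal fat of the Gipr line, matrix genes were lower in both the conjugate and the knockout group than in vehicle-treated floxed mice. With the conjugate 13 of the 43 genes fell and 2 rose, and in the knockout 22 fell and none rose (limma with Benjamini-Hochberg adjustment over all genes tested, threshold 0.05). Over all 13604 genes tested, 7.02% were called with the conjugate (4.26% higher and 2.76% lower) and 12.3% in the knockout (5.67% lower). The median log2 difference of the 43 genes was -0.47 with the conjugate, against 0.11 over all genes, and -0.62 in the knockout, against 0.09. Both comparisons use the same 5 vehicle libraries, so they are not independent of each other. The summed level of the 43 genes was 9550 ± 1350 FPKM (SD, n = 5) under vehicle, 6130 ± 1530 with the conjugate and 5940 ± 1410 in the knockout. The 5 libraries per group ran from 7360 to 10900, 4240 to 7850 and 4090 to 7270, so the conjugate range overlapped the vehicle range and the knockout range did not. All 5 conjugate libraries were below all 5 vehicle libraries for 10 genes and above them for 1, where 4.06% and 7.51% of all genes tested did so. All 5 knockout libraries were below all 5 vehicle libraries for 14 genes, against 4.73% of all genes.

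**Figure D2:**
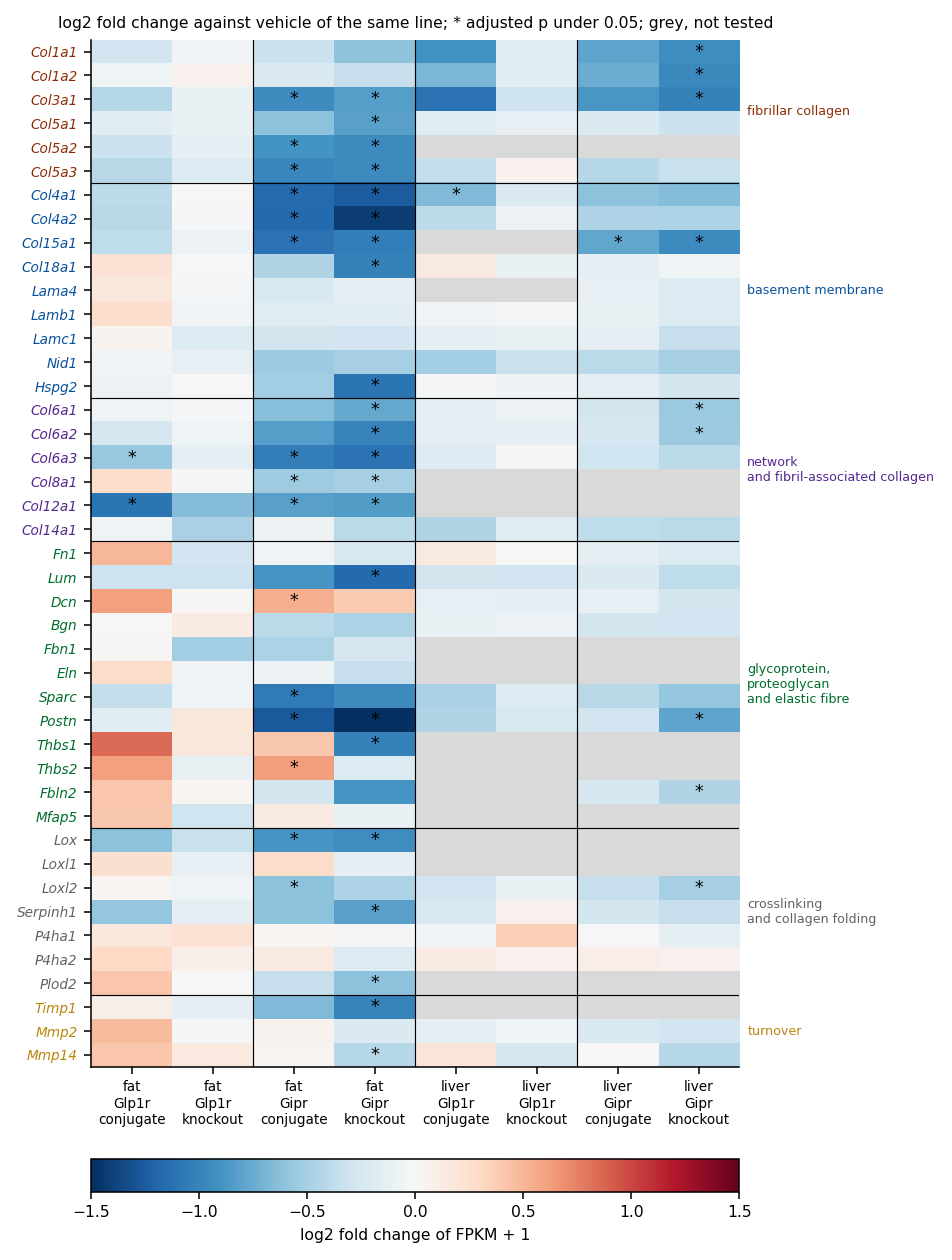
Log2 difference from vehicle of each of the 43 matrix genes (rows, by role) in the 8 comparisons with vehicle (columns), on the log2(FPKM + 1) scale; asterisks mark an adjusted p under 0.05 and grey cells were not tested. The 2 columns for fat of the Gipr line hold 15 and 22 asterisks, and the 2 knockout columns of the Glp1r line hold none.

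Among the fibrillar collagens of this fat, 3 of 6 fell with the conjugate and 4 of 6 in the knockout. Col3a1, which encodes the type III collagen that forms fibres together with type I, was at 768, 475, 899, 777 and 713 FPKM under vehicle, 315, 606, 432, 362 and 232 with the conjugate, and 315, 567, 476, 393 and 301 in the knockout. One vehicle library (475) lay within the range of both other groups, and the other 4 stood above them. The log2 difference was -0.94 (SE 0.25, limma adjusted p = 0.0371) with the conjugate and -0.83 (SE 0.25, adjusted p = 0.0429) in the knockout. Col5a3, a chain of type V collagen, was at 124, 88.7, 132, 84.3 and 92.4 FPKM under vehicle, 37.3, 84.1, 60.5, 43.3 and 43.9 with the conjugate, and 46.3, 71.7, 63.9, 46 and 39.9 in the knockout. Neither group overlapped the vehicle libraries, although one conjugate library (84.1) came within 1 FPKM of the lowest of them. Its log2 differences were -0.98 (SE 0.22, adjusted p = 0.0182) and -0.96 (SE 0.22, adjusted p = 0.0143). Col5a2 fell in both groups as well (-0.90 and -0.96), and Col5a1 in the knockout (-0.81, SE 0.21, adjusted p = 0.0234). The type I collagen genes, the most abundant fibre chains in many tissues, were not called: Col1a1 differed by -0.32 with the conjugate and -0.60 in the knockout (limma adjusted p = 0.576 and 0.235).

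Among the 9 basement membrane genes, 3 fell with the conjugate and 5 in the knockout. Col4a1, which encodes the main type IV collagen chain, was at 478, 284, 488, 357 and 342 FPKM under vehicle, 130, 266, 210, 155 and 130 with the conjugate, and 122, 221, 225, 139 and 122 in the knockout. All 10 libraries of the 2 other groups lay below the lowest vehicle library. The log2 differences were -1.15 (SE 0.24, limma adjusted p = 0.0143) and -1.25 (SE 0.24, adjusted p = 0.00646). Its partner Col4a2 was at 362, 209, 369, 276 and 243 FPKM under vehicle, 87.1, 199, 169, 119 and 91.4 with the conjugate, and 78, 136, 160, 101 and 77.7 in the knockout, again without overlap. Col4a2 differed by -1.17 (SE 0.26, adjusted p = 0.0186) and -1.42 (SE 0.26, adjusted p = 0.00551). Col15a1, whose product links the basement membrane to nearby fibres, was at 214, 178, 191, 206 and 186 FPKM under vehicle, 58.7, 129, 128, 86.6 and 68.4 with the conjugate, and 85.2, 100, 141, 129 and 47.2 in the knockout. The vehicle libraries were close together and clear of both other groups, and the differences were -1.11 (SE 0.27, adjusted p = 0.0255) and -1.04 (SE 0.27, adjusted p = 0.0241). Col18a1 (-1.01, adjusted p = 0.0385) and the perlecan gene Hspg2 (-1.09, adjusted p = 0.0348) fell in the knockout. The laminin genes Lama4, Lamb1 and Lamc1 and the nidogen gene Nid1 were not called in either comparison.

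Of the 6 network and fibril-associated collagens, 3 fell with the conjugate and 5 in the knockout. Col6a3, the chain from which the fragment endotrophin is released, was at 116, 96.1, 113, 83.5 and 75.9 FPKM under vehicle, 42, 69, 48.2, 45 and 32.2 with the conjugate, and 44.9, 54.9, 46.7, 45 and 30.9 in the knockout. No library of either group reached the lowest vehicle library. The differences were -1.04 (SE 0.19, limma adjusted p = 0.00653) and -1.11 (SE 0.19, adjusted p = 0.00373). Col12a1, a fibril-associated collagen, had the smallest adjusted p of the 43 genes in both comparisons. Its libraries were at 3.68, 4.14, 3.75, 3.9 and 3.86 FPKM under vehicle, 1.42, 2.62, 1.74, 1.86 and 1.38 with the conjugate, and 1.86, 1.68, 1.86, 1.68 and 1.55 in the knockout. Vehicle libraries differed by less than 1 FPKM among themselves and none overlapped the other groups, with differences of -0.81 (SE 0.11, adjusted p = 0.0011) and -0.84 (SE 0.11, adjusted p = 0.000897). At these low levels the added 1 FPKM makes the log2 difference smaller than that of the FPKM themselves. Col8a1 fell in both groups (-0.53 and -0.50), and Col6a1 (-0.77) and Col6a2 (-1) fell in the knockout.

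The glycoproteins and proteoglycans moved in both directions. Postn encodes periostin, a matricellular protein that binds collagen, and it had the largest fall of the 43 genes in both comparisons. It was at 178, 173, 174, 224 and 156 FPKM under vehicle, 49.3, 99, 78, 76.3 and 76.7 with the conjugate, and 68.4, 58.6, 71.4, 96.3 and 35.8 in the knockout. The groups did not overlap the vehicle libraries, and the differences were -1.26 (SE 0.22, limma adjusted p = 0.00537) and -1.5 (SE 0.22, adjusted p = 0.00195). Sparc was at 4270, 3040, 4680, 4160 and 4110 FPKM under vehicle, 1100, 2730, 2650, 2200 and 1500 with the conjugate, and 1720, 2280, 2900, 3090 and 1120 in the knockout. One knockout library (3090) passed the lowest vehicle library, and the conjugate libraries stayed below all of them. Sparc fell with the conjugate (-1.06, SE 0.30, adjusted p = 0.047), and its knockout value was -0.94 (adjusted p = 0.0526).

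Dcn and Lum are neighbouring genes of small leucine-rich proteoglycans that bind collagen fibrils. Dcn was at 524, 617, 520, 775 and 649 FPKM under vehicle, 738, 872, 918, 1120 and 835 with the conjugate, and 759, 814, 810, 939 and 707 in the knockout. One vehicle library (775) lay within both other groups. Dcn rose with the conjugate (0.54, SE 0.14, limma adjusted p = 0.0335), and its knockout value was 0.39 (adjusted p = 0.0781). Lum was at 75.3, 86.1, 62.6, 125 and 97.4 FPKM under vehicle, 28.3, 71.6, 56.8, 47.8 and 38.3 with the conjugate, and 36, 37.6, 40.6, 60.8 and 23.4 in the knockout. The knockout libraries lay below all vehicle libraries, and 1 conjugate library (71.6) overlapped them. Lum fell in the knockout (-1.17, SE 0.26, adjusted p = 0.0133), and its conjugate value was -0.89 (adjusted p = 0.0542). The ratio of Dcn to Lum in FPKM was 7.06 ± 0.784 (SD, n = 5) under vehicle, 19.9 ± 5.64 with the conjugate and 21.7 ± 5.38 in the knockout.

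The thrombospondin genes Thbs1 and Thbs2, whose products regulate cell contacts with the matrix and vessel growth, are given for all 3 groups. Thbs2 was at 24.4, 17.9, 18.7, 25.9 and 20.6 FPKM under vehicle, 27, 37.3, 28.2, 47 and 31.4 with the conjugate, and 15.9, 21.9, 17.8, 18.8 and 17.6 in the knockout. Every conjugate library was above every library of the other groups. Thbs2 rose with the conjugate (0.63, SE 0.15, limma adjusted p = 0.0215), and its knockout value was -0.21 (adjusted p = 0.341). Thbs1 was at 26.9, 26.8, 23.5, 23.9 and 20 FPKM under vehicle, 21.2, 39.6, 27.7, 37.6 and 40.7 with the conjugate, and 9.81, 11.8, 14, 15.6 and 7.72 in the knockout. The knockout libraries were below all others, and the conjugate libraries overlapped vehicle. Thbs1 fell in the knockout (-1.01, SE 0.19, adjusted p = 0.00607), and its conjugate value was 0.41 (adjusted p = 0.206).

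Among the crosslinking and folding genes, 2 of 7 fell with the conjugate and 3 of 7 in the knockout. Lox encodes lysyl oxidase, which starts collagen and elastin crosslinks. It was at 48.7, 52.4, 43, 65.9 and 54.8 FPKM under vehicle, 17.1, 36.3, 35.1, 29.6 and 26.8 with the conjugate, and 22.6, 28.1, 27, 35.8 and 23.2 in the knockout. Both groups lay wholly below vehicle, by -0.88 (SE 0.18, limma adjusted p = 0.0143) and -0.93 (SE 0.18, adjusted p = 0.00717). Loxl2, a related oxidase gene, fell with the conjugate (-0.61, adjusted p = 0.0484), and Serpinh1 (-0.82, adjusted p = 0.0312) and the lysyl hydroxylase gene Plod2 (-0.62, adjusted p = 0.0437) fell in the knockout. None of the 3 turnover genes was called with the conjugate and 2 fell in the knockout. Timp1, an inhibitor of metalloproteinases, was at 6.22, 5.45, 4.65, 10.8 and 7.42 FPKM under vehicle, 2.49, 5.7, 4.71, 3.26 and 3.63 with the conjugate, and 2.37, 2.66, 3.54, 3.28 and 2.38 in the knockout. The knockout libraries were below all vehicle libraries (-1, SE 0.20, adjusted p = 0.00755), and those of the conjugate overlapped them (-0.66, adjusted p = 0.0604). Mmp14, a membrane-bound metalloproteinase gene, fell in the knockout by 0.43 on the log2 scale (SE 0.12, adjusted p = 0.0357), and Mmp2 was not called.

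**Figure D3:**
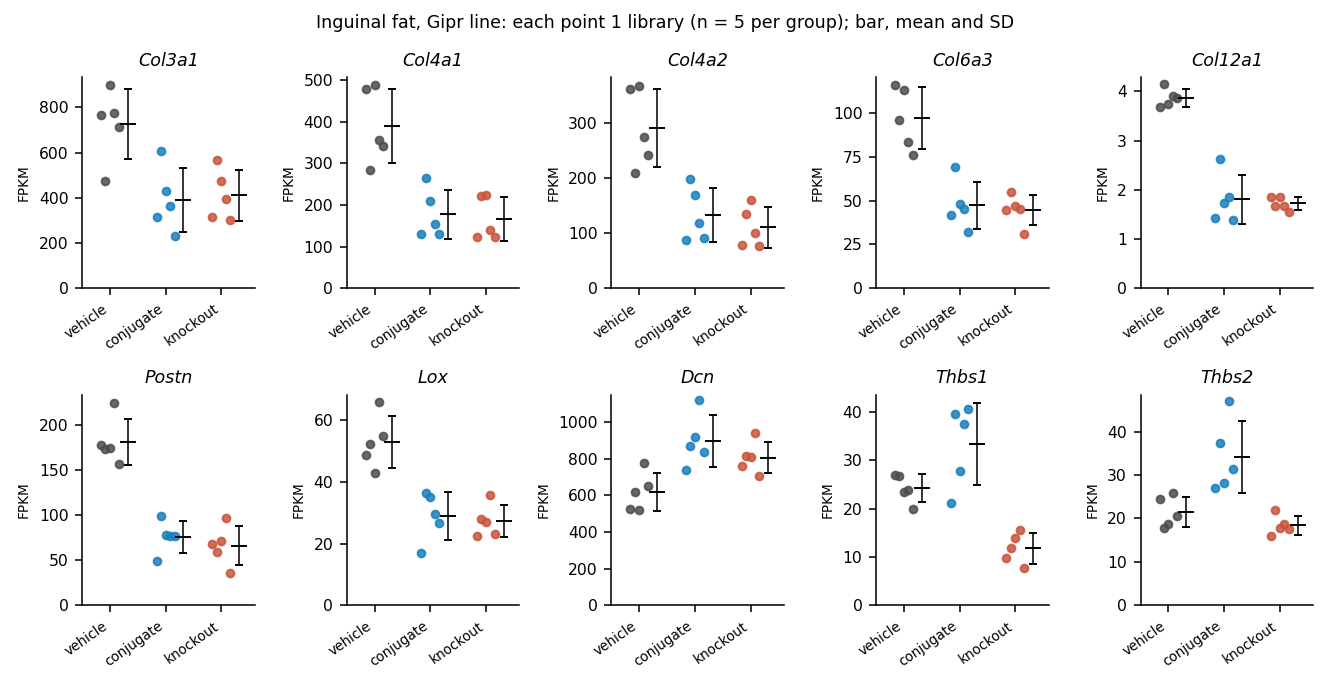
FPKM of 10 matrix genes in inguinal fat of the Gipr line, one panel per gene, for vehicle, conjugate and knockout libraries (points are libraries, bars the mean and SD, n = 5 per group). Col4a1, Col4a2, Col6a3, Col12a1, Postn and Lox were lower in every conjugate and knockout library than in any vehicle library, Dcn and Thbs2 were higher with the conjugate, and Thbs1 was lowest in the knockout.

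Single libraries moved these counts, which are given here without the share of all genes called in each fit. Without vehicle replicate 1, conjugate replicate 1, vehicle replicate 4, vehicle replicate 5 or conjugate replicate 5 the conjugate count was 6, 9, 9, 8 or 6 in place of 15. Without vehicle replicate 1, knockout replicate 1, vehicle replicate 4, vehicle replicate 5 or knockout replicate 5 the knockout count was 11, 11, 14, 14 or 13 in place of 22. Col4a1, Col6a3, Col12a1, Postn and Lox were called in all 10 such fits of each comparison.

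Markers of other cell types differed between the same libraries. A B cell score, the mean of log2(FPKM + 1) over 8 B cell marker genes (all 8 at a mean of 1 FPKM or more in each group), was 0.92, 4.40, 1.70, 0.99 and 1.32 in the vehicle libraries, 5.82, 2.69, 3.90, 1.70 and 3.56 with the conjugate, and 6.06, 3.67, 3.31, 3.86 and 6.07 in the knockout. Vehicle replicate 2, the one vehicle library with a high score, was also the lowest of the 5 for Col3a1, Col4a1 and Sparc. Leaving out the libraries with a score above 3 kept 4 vehicle and 2 conjugate libraries and left 1 gene called with the conjugate, Postn (-1.05, limma adjusted p = 0.0451), with 0.73% of all genes called and a matrix median of -0.34. That cut removes all 5 knockout libraries. In fits chosen after seeing the data, leaving out the libraries with a score above 5 left 14 genes called with the conjugate, 13 of them among the 15 (6.99% of all genes), and 9 in the knockout (5.69% of all genes). With the score as a term in the fit, 8 remained with the conjugate, all among the 15 (6.46% of all genes): Col4a1, Col4a2, Col6a3, Col12a1, Postn (-1.03), Lox, Dcn (0.66) and Thbs2 (0.85). In the knockout 2 remained, Postn (-1.11, limma adjusted p = 0.0406) and Col12a1 (-0.76, adjusted p = 0.0149), with 1.87% of all genes called. The 9 macrophage markers summed to 3020 to 3360 FPKM under vehicle, 1340 to 2460 with the conjugate and 1390 to 2640 in the knockout. Most of that sum was 1 gene, Lpl (means of 2760, 1470 and 1690 FPKM). The macrophage score, formed like the B cell score, was 5.95 to 6.59, 5.52 to 6.49 and 5.38 to 5.76. By score the conjugate range overlapped vehicle and the knockout range did not. The 8 endothelial markers summed to 529 to 681, 390 to 550 and 347 to 515 FPKM in the same order. The 10 fibroblast and progenitor markers summed to 3120 to 4020, 5210 to 7400 and 3360 to 6070 FPKM. Gsn held most of that sum, with a mean of 2990 FPKM under vehicle and 5510 with the conjugate. The score of this list was 5.4 to 5.8, 5.88 to 6.25 and 5.61 to 6.17. Schwann cell markers summed to 153 to 207, 212 to 372 and 200 to 349 FPKM, and lymph node stroma markers to 10.4 to 212, 27.5 to 721 and 77.4 to 529 FPKM. Skeletal muscle markers summed to 43.2 to 576 (median 298), 35.9 to 1440 (median 899) and 30 to 191 FPKM (median 105), and epithelial and skin markers to 3.48 to 112 (median 36.4), 0.645 to 35.2 (median 4.49) and 0.486 to 41.4 FPKM (median 2.23). The part of these other cells in the matrix results was not tested beyond the B cell score.

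**Figure D4:**
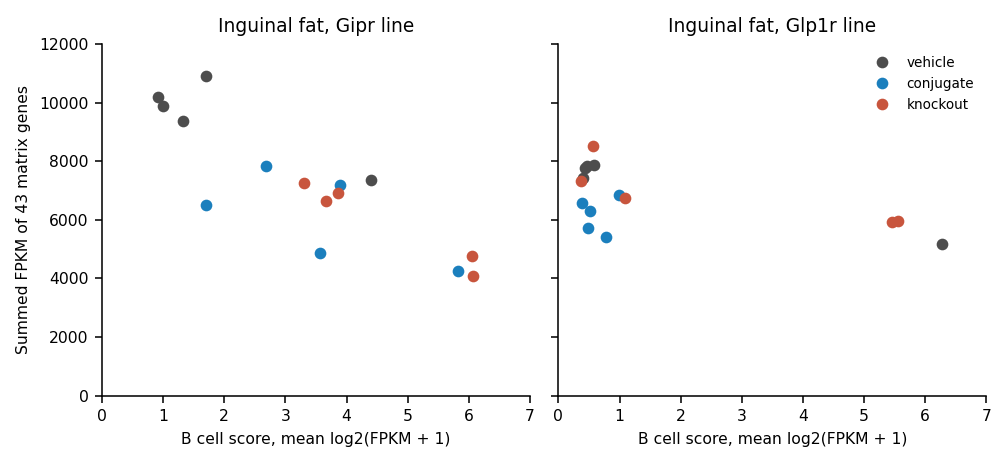
Summed FPKM of the 43 matrix genes (vertical axis) against the B cell score (mean log2(FPKM + 1), horizontal axis) in the 15 fat libraries of each line, coloured by group; each point is a library. Gipr-line vehicle libraries lie between 7360 and 10900 FPKM, most of them at low scores, and the lowest Glp1r-line vehicle library (5180 FPKM) has the highest score of its group.

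Conjugate and knockout libraries of this fat were also compared directly. Vehicle levels do not enter this difference, but the vehicle libraries share in the estimate of the spread. Of the 43 genes 1 was called, Thbs1, which was higher with the conjugate by 1.42 (SE 0.19, limma adjusted p = 0.0348), where 0.00735% of all genes tested were called. All 5 conjugate libraries (21.2 to 40.7 FPKM) were above all 5 knockout libraries (7.72 to 15.6 FPKM). Equal replicate numbers tracked each other in these 2 groups, and with the replicate number as a block Thbs1 kept its difference of 1.42 but was not called (adjusted p = 0.0812). In a fit on only these 2 groups no matrix gene was called. The call was also lost when any 1 of knockout replicates 1, 2, 3 and 5 or conjugate replicates 2 to 5 was left out, with 0 genes called. With the B cell score as a term its difference was 1.28 (adjusted p = 0.0316). Thbs2 (0.84, adjusted p = 0.21) and Mmp14 (0.48, adjusted p = 0.593) also had no overlap between the groups. The median of the 43 genes in this comparison was 0.17, against 0 over all genes.

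In inguinal fat of the Glp1r line the median difference of the 43 genes with the conjugate was -0.01, against 0.05 over all genes, and the summed levels were 7220 ± 1160 FPKM (SD, n = 5) under vehicle, 6170 ± 600 with the conjugate and 6890 ± 1080 in the knockout. With the conjugate 2 of the 43 genes fell, Col12a1 and Col6a3, where 3.39% of the 12686 genes tested were called (1.08% lower). Col12a1 was at 2.78, 3.31, 3.46, 3.45 and 4.62 FPKM under vehicle, 0.586, 1.48, 0.764, 1.18 and 1.6 with the conjugate, and 2.09, 2.05, 1.68, 1.42 and 2.09 in the knockout. Both other groups lay wholly below vehicle. The conjugate difference was -1.10 (SE 0.15, limma adjusted p = 0.00367), and Col12a1 was called in all 10 fits that left out 1 library. The knockout difference was -0.65 (SE 0.15, adjusted p = 0.983). Col6a3 was at 70.2, 50.1, 62.1, 64.7 and 66.5 FPKM under vehicle, 30.7, 49.6, 39.3, 44.5 and 46.6 with the conjugate, and 53.3, 58.6, 50.3, 51.3 and 72.2 in the knockout. The lowest vehicle library and the highest conjugate library were 0.5 FPKM apart. Its conjugate difference was -0.57 (SE 0.14, adjusted p = 0.0355), and with the replicate block, whose numbers are not shown to pair these mice, it was not called (adjusted p = 0.0775).

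Some genes called in fat of the Gipr line are given with their values here, though they were not called. Col4a1 was at 471, 296, 358, 425 and 410 FPKM under vehicle and 289, 365, 255, 299 and 274 with the conjugate (-0.39, limma adjusted p = 0.117). Thbs2 was at 16.3, 15, 13.3, 20.6 and 22.4 FPKM under vehicle and 30.1, 19.7, 32.5, 39.4 and 18.3 with the conjugate (0.61, adjusted p = 0.0979). Lox differed by -0.62 (adjusted p = 0.108). For each of Col4a1 and Thbs2, 2 of the 5 conjugate libraries lay within the vehicle range. Dcn reached 881 FPKM in conjugate replicate 5, where the other 4 were at 313 to 363. Vehicle replicate 2 had a B cell score of 6.27, against at most 0.58 in the other 4, and knockout replicates 1 and 3 had 5.55 and 5.46. Without the 3 libraries scoring above 3, which are also those above 5, 10 matrix genes were called with the conjugate, all lower, among them Col12a1 (-1.12), Col6a3 (-0.65) and Lox (-0.75, adjusted p = 0.0234), but 21.1% of all genes were then called. With the score as a term, chosen after seeing the data, 11 were called, 10 lower and Plod2 higher (0.36, adjusted p = 0.028), with 21.3% of all genes. Leaving out vehicle replicate 2 alone gave 8 and conjugate replicate 2 alone 4, and leaving out vehicle replicate 1, 3, 4 or 5 or conjugate replicate 1, 3 or 4 gave 1. For these fits without 1 library the share of all genes called is not given here. The 10 fibroblast and progenitor markers summed to 2080 to 3880 FPKM under vehicle, 5170 to 7530 with the conjugate and 2710 to 4760 in the knockout. In sum every conjugate library was thus above all others, but most of the sum was 1 gene, Gsn. Its mean was 2920 FPKM under vehicle and 5870 with the conjugate. The score of the same list, formed like the B cell score, overlapped: 4.63 to 5.09, 4.8 to 5.8 and 4.64 to 4.99 in the same order. The part of fibroblasts and progenitors in the result was not tested.

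In the Glp1r knockout no matrix gene of this fat was called against vehicle by limma, where 0% of all genes were called. At an unadjusted p under 0.05 it was 1 of 43 genes, against 4.67% of all genes. Between conjugate and knockout libraries none of the 43 was called either, with 0.134% of all genes called, and 14 of 43 had an unadjusted p under 0.05, against 10.5% of all genes. With the B cell score as a term 7 of these fell below the knockout, with 13.3% of all genes called, among them Col4a1 (-0.55, adjusted p = 0.00699), and without libraries scoring above 5 there were 2 (2.57% of all genes).

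The conjugate effect in fat was compared between the lines with an interaction term over 30 libraries. No matrix gene was called by limma, and 0% of the 14156 genes tested were. An unadjusted p under 0.05 was found for 11 of the 43, all more negative in the Gipr line, against 3.91% of all genes. Postn differed by -1.10 (SE 0.32), Plod2 by -0.77 (SE 0.23) and Col4a1 by -0.76 (SE 0.29), each with a limma adjusted p of 0.887. The difference was negative for 40 of the 43, with a median of -0.45 against 0.05 over all genes. The larger number of calls in the Gipr line is therefore not shown to be a difference between the lines, and the line and its table of values cannot be told apart.

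Liver held far less matrix RNA, and 31 of the 43 genes passed the filter on low values in the Gipr line (at least 1 FPKM in 5 of 15 libraries). In the Gipr knockout 9 fell and none rose, 3 of them fibrillar collagens, where 10.4% of the 11201 genes tested were called (8.92% lower). The median of these genes was -0.40, against -0.11 over all genes, and it came to -0.28 when libraries were rescaled by median of ratios, which moved the median of all genes to 0. With the conjugate 1 fell, Col15a1, where 4.34% of all genes were called, and the median was -0.27 against -0.03. All 5 knockout libraries were below all 5 vehicle libraries for 7 genes, against 10.6% of all genes. Genes near 1 FPKM could pass the filter through the vehicle libraries, and Col15a1 did so through these 5 libraries alone and Fbln2 through 4 of them and 1 conjugate library, so these counts do not describe all 43 genes.

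Col1a1, a type I collagen chain, was at 1.59, 1.51, 3.88, 2.64 and 2.51 FPKM in vehicle liver, 0.251, 0.741, 1.41, 0.866 and 1.66 with the conjugate, and 0.717, 0.604, 0.488, 0.446 and 1.69 in the knockout. Knockout replicate 5 was the one knockout library within the vehicle range. The knockout difference was -0.93 (SE 0.23, limma adjusted p = 0.0182) and the conjugate difference -0.79 (adjusted p = 0.0673). Its partner chain gene Col1a2 was at 4.01, 4, 8.32, 6.17 and 5.21 FPKM under vehicle, 1.5, 2.65, 4.21, 2.39 and 3.74 with the conjugate, and 2.13, 2.28, 1.53, 1.65 and 4.22 in the knockout. One library of each group passed the lowest vehicle library, and the differences were -0.97 (SE 0.24, adjusted p = 0.0159) in the knockout and -0.75 (adjusted p = 0.0847) with the conjugate. Col3a1 was at 9.71, 8.46, 19.4, 15.6 and 10.4 FPKM under vehicle, 3.91, 5.62, 10.8, 4.55 and 7.88 with the conjugate, and 5.14, 5.35, 4.23, 3.83 and 11.1 in the knockout. Again 1 library of each group overlapped vehicle, with -1.01 (SE 0.29, adjusted p = 0.0378) in the knockout and -0.87 (adjusted p = 0.103) with the conjugate. The summed fibrillar collagens were 30.3 ± 7.49 FPKM (SD, n = 5) under vehicle, 17.4 ± 6.04 with the conjugate and 15.9 ± 4.57 in the knockout.

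Col15a1 was at 1.35, 1.87, 2.44, 1.57 and 1.58 FPKM in vehicle liver, 0.62, 0.722, 0.582, 0.25 and 0.865 with the conjugate, and 0.45, 0.507, 0.331, 0.311 and 0.516 in the knockout. Neither group overlapped vehicle. The differences were -0.78 (SE 0.12, limma adjusted p = 0.00352) and -0.95 (SE 0.12, adjusted p = 0.000197), and without any filter on low values both were still called (adjusted p = 0.0125 and 0.000904). Fbln2, an elastic fibre glycoprotein gene, was at 1.27, 0.76, 1.17, 1.4 and 1.22 FPKM under vehicle, 0.566, 1, 0.922, 0.682 and 0.92 with the conjugate, and 0.639, 0.643, 0.473, 0.474 and 0.668 in the knockout. The knockout libraries lay just below the lowest vehicle library (-0.45, SE 0.10, adjusted p = 0.00795). Without a filter on low values its limma adjusted p was 0.0209, and it passed the filter in 6 of the 10 fits that left out 1 library. Postn was at 5.47, 4.05, 10.5, 9.61 and 3.99 FPKM under vehicle, 6.5, 4.06, 5.91, 3.18 and 5.65 with the conjugate, and 2.66, 3.46, 2.78, 3.91 and 3.22 in the knockout. The lowest vehicle library was 3.99 and the highest knockout library 3.91, so the groups only just failed to meet (-0.79, SE 0.23, adjusted p = 0.0436). Col6a1 (-0.56, adjusted p = 0.0439), Col6a2 (-0.55, adjusted p = 0.0274) and Loxl2 (-0.50, adjusted p = 0.0217) fell in the knockout as well. None of the 9 rose.

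**Figure D5:**
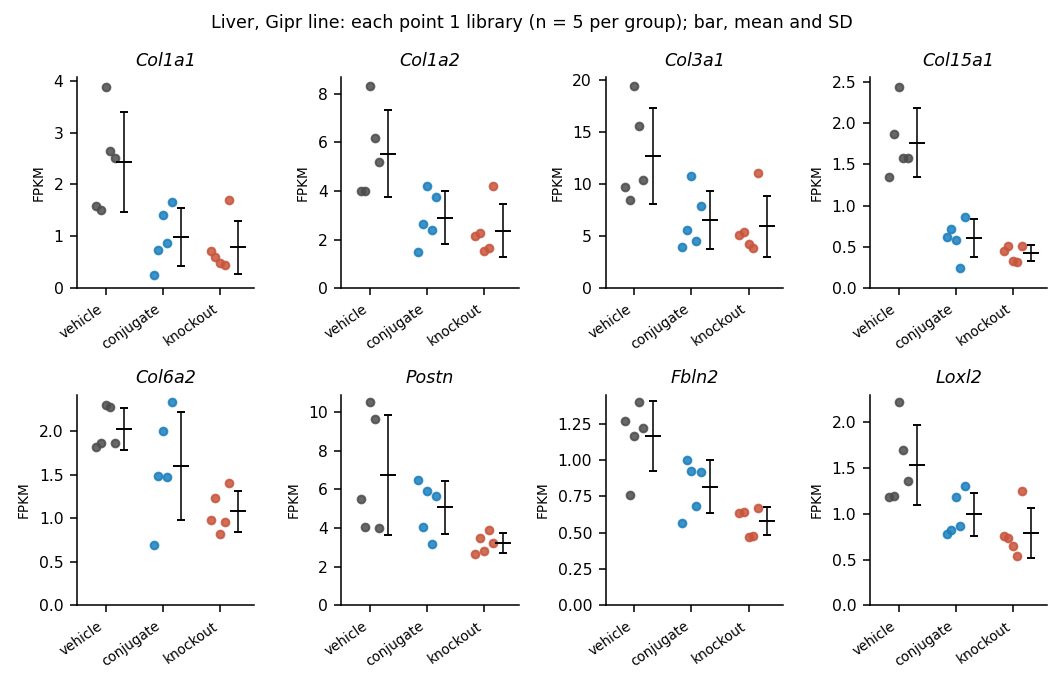
FPKM of 8 matrix genes in liver of the Gipr line, one panel per gene, for vehicle, conjugate and knockout libraries (points are libraries, bars the mean and SD, n = 5 per group). Col15a1 was lower in all conjugate and knockout libraries than in any vehicle library, and knockout replicate 5 stands above the other 4 knockout libraries for Col1a1 (1.69 against 0.446 to 0.717).

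The knockout count depended on single libraries: it was 5, 3, 4, 4 and 16 without knockout replicates 1 to 5, and 1, 2 and 5 without vehicle replicates 3, 4 and 5. For fits without 1 library the share of all genes called is not given here. The conjugate count was 0 without any 1 of the 5 vehicle libraries, since Col15a1 was then not tested, and 3 without conjugate replicate 5. Among the fits that tested it, Col15a1 stayed between -0.84 and -0.69. A pancreas score (mean log2(FPKM + 1) of 7 pancreatic marker genes) was 3.74, 8.41, 0.68, 5.19 and 8.43 in the vehicle libraries, 0.84, 7.78, 4.73, 9.39 and 2.96 with the conjugate, and 8.07, 1, 0.91, 0.93 and 0.9 in the knockout. Keeping the libraries at 5 or below, chosen after seeing the data, left 2 vehicle, 3 conjugate and 4 knockout libraries and no matrix gene called in either comparison, with 0.903% of all genes called in the knockout and a matrix median of -0.46. With the score as a term 10 matrix genes were called in the knockout, Postn among them (-1.06, limma adjusted p = 0.00125). The share of all genes called in that fit is not given here, so the count of 10 is not set against it. The 8 stellate cell markers summed to 51.9 to 78.9 FPKM under vehicle, 49.8 to 72.7 with the conjugate and 48.9 to 64.8 in the knockout, and overlapped. Adipocyte markers (8 genes, 5 of them at a mean of 1 FPKM or more in vehicle and knockout liver) summed to 62.3 to 135 FPKM under vehicle, 24.4 to 64.3 with the conjugate and 25.8 to 31.4 in the knockout. Mesothelial markers summed to 95.7 to 176, 51.2 to 124 and 65.3 to 78.9 FPKM, and erythrocyte markers to 676 to 1160, 250 to 766 and 460 to 602 FPKM. These 3 sums were lower in every knockout library than in any vehicle library. Within the adipocyte sum Cidec had a mean of 2.11 FPKM in the knockout against 36.8 under vehicle, while Adipoq was at most 1.34 and Plin1 at most 0.676. Krt8 held most of the mesothelial sum (mean 71.1 against 130). The mesothelial scores overlapped (1.32 to 1.69 against 1.65 to 1.91), and the adipocyte and erythrocyte scores did not. Such sums can follow single genes, and the part of these markers in the result was not tested. Between conjugate and knockout libraries no matrix gene was called by limma, with 1.31% of all genes called, and 1 of 31 had an unadjusted p under 0.05, against 15.3% of all genes. The count was 1 without conjugate replicate 1, and with the pancreas score as a term Postn was higher with the conjugate by 0.76 (adjusted p = 0.0454).

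In liver of the Glp1r line 28 of the 43 genes passed the filter. With the conjugate 1 fell, Col4a1, where 10.4% of the 10858 genes tested were called, and the median was -0.18 against 0.01 over all genes. Col4a1 was at 4.12, 7.34, 6.6, 5.71 and 6.67 FPKM under vehicle, 2.97, 4.04, 3.69, 2.79 and 3.74 with the conjugate, and 3.11, 4.09, 4.97, 6.38 and 7.58 in the knockout. The highest conjugate library was just below the lowest vehicle library, and the difference was -0.66 (SE 0.18, limma adjusted p = 0.0305). Summed adipocyte markers were lower in every conjugate library (19.9 to 54.9 FPKM) than in any vehicle library (62.4 to 110). Among them Cidec had a mean of 12.6 against 44.6, while Adipoq was at most 0.0476 FPKM and Lep was 0 in both groups. The sums of mesothelial (77.8 to 105 against 124 to 196), erythrocyte (319 to 607 against 672 to 974) and epithelial markers (49.7 to 79.8 against 88.7 to 122) were also lower. Only 1 mesothelial marker, Krt8 (95.1 against 152), and 1 epithelial marker, Krt18 (67.4 against 99.9), had a mean of 1 FPKM or more. Those 2 sums thus follow single genes, and the part of these markers in the result was not tested. Col3a1 was at 6.01, 10.1, 9.31, 10.9 and 15 FPKM under vehicle and 2.76, 3.36, 6.86, 3.21 and 4.95 with the conjugate, overlapping by 1 library (-1.11, SE 0.36, adjusted p = 0.0591). Against the knockout 1 gene was called, Mmp14, higher with the conjugate by 0.46 (SE 0.11, adjusted p = 0.0318), where 5.04% of all genes were called. Mmp14 was at 7.61, 8.26, 9.86, 8.18 and 10.5 FPKM under vehicle, 11, 9.88, 11.1, 9.66 and 9.68 with the conjugate, and 6.67, 6.06, 6.98, 6.64 and 10.1 in the knockout. Knockout replicate 5 was the one knockout library among the conjugate libraries.

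Depth followed treatment in this liver: it was 34 ± 1.59 Mfragments (SD, n = 5) with the conjugate, 49.9 ± 2.94 under vehicle and 48.4 ± 3.47 in the knockout, with the conjugate libraries below all others, so depth and the conjugate cannot be told apart. With depth as a term no matrix gene was called (Col4a1 -1.37, limma adjusted p = 0.35, and Mmp14 0.37, adjusted p = 0.75). The conjugate count was 3 without vehicle replicate 1, 2 without conjugate replicate 2, and 0 without vehicle replicate 2, 3, 4 or 5 or conjugate replicate 1 or 4. The count against the knockout was 6 without knockout replicate 1, 2 without conjugate replicate 2, and 0 without knockout replicate 2, 3 or 4 or conjugate replicate 1 or 3. For these fits without 1 library the share of all genes called is not given here. In the knockout against vehicle no matrix gene was called by limma, with 0% of all genes, and 2 of 28 had an unadjusted p under 0.05, against 9.65% of all genes. The interaction of conjugate and line in liver called none of 33 matrix genes tested and 0% of the 11549 genes, with 1 of 33 at an unadjusted p under 0.05, against 5.71% of all genes.

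A wider set of 179 other matrix genes in 7 lists (other collagens, basement membrane, glycoproteins, collagen processing, turnover, matrix receptors, and TGF-beta and profibrotic signals) was counted beside these. In fat of the Gipr line 12 of the 153 tested rose and 12 fell with the conjugate, where 7.02% of all genes were called, and 6 rose and 26 fell in the knockout, where 12.3% were. The counts of single lists are small, and some lie near these shares. The falls in the knockout included Mmp12, a macrophage elastase gene (8.3 ± 7.54 FPKM against 61.2 ± 20.2 under vehicle, SD, n = 5, log2 difference -3.16). Mrc2, a receptor that takes up collagen for degradation, fell in both (-1.21 with the conjugate and -1.97 in the knockout). In the knockout 6 of the 23 collagen processing genes fell and none rose, among them Plod1 and Plod3 (each -0.82), and 7 of the 23 turnover genes fell and 1 rose, Mmp9 (1.01). With the conjugate the glycoprotein list had 6 higher and 2 lower of 39, with Podn (1.26) and Fbln1 (1) among the higher, and the turnover list had 4 higher and 4 lower of 23, with Timp4 (1.5) among the higher. Of the 7 other collagens tested none was called with the conjugate and 2 fell in the knockout, and of the 14 other basement membrane genes 1 fell with the conjugate, and 1 rose and 1 fell in the knockout. The glycoprotein list had 4 higher and 4 lower in the knockout. Of the TGF-beta and profibrotic signal genes 2 of 25 rose with the conjugate and 2 fell in the knockout, the platelet-derived growth factor gene Pdgfb (-0.6) and the receptor gene Pdgfrb (-0.82). Of the 22 matrix receptor genes 3 fell with the conjugate and 4 in the knockout.

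In fat of the Glp1r line 7 of 142 rose and 3 fell with the conjugate (3.39% of all genes called), among them Podn (1.11), the procollagen enhancer gene Pcolce2 (-1.11) and the integrin gene Itga6 (-0.72), and none was called in the knockout (0% of all genes). In liver of the Gipr line 3 of 92 fell with the conjugate (4.34% of all genes called), led by the laminin gene Lamb3 (-1.16), and 15 fell and 1 rose in the knockout (10.4% of all genes called), with Mmp12 (-2.08) among the falls. In liver of the Glp1r line 5 of 88 rose and 4 fell with the conjugate, a share close to the 10.4% of all genes called, among them Smad7 (0.73), an inhibitor of TGF-beta signalling, and Lamb3 (-0.91). In the direct comparisons of conjugate with knockout, none was called in either tissue of the Gipr line, 1 rose in fat of the Glp1r line (Gdf10, 0.88), and 4 rose and 1 fell in its liver (0.134% and 5.04% of all genes called).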

How the data were processed

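Polyadenylated RNA was extracted from each tissue and sequenced as TruSeq Stranded mRNA libraries, per the labels' protocols. The authors deposited 4 tables of FPKM, made with RSEM per the submitters' processing notes; the RSEM version, aligner, build and gene models were not given in the sources used here. Each table held 15 libraries.

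From these values log2(FPKM + 1) was computed, genes with at least 1 FPKM in 5 of 15 libraries were kept, and limma 3.58.1 (R 4.3.3, moderated test with trend, 3 groups per table) was fitted on all genes, with Benjamini-Hochberg adjustment over all genes tested and a threshold of 0.05. The fit was checked on simulated data. A fold change on this scale understates that of low genes. Depth was estimated from 6982 genes of 1 annotated transcript, on the assumption that their low values are whole multiples of 1 fragment. A median of 13.6% of values lay at 1 fragment and 7.32% at 2. The annotation need not be that of the deposited values, so the depths are approximate. Interaction fits used 30 libraries. The 43 genes and all gene lists were chosen with earlier results of these data known. Genes named are the members, and for the wider lists those past the threshold with the largest difference, at most 3 for each list and comparison.

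Equal replicate numbers deviated together in 1 comparison, conjugate against knockout fat of the Gipr line (r from 0.331 to 0.707 in 5 of 5 pairs, each best with its own number), as a hint from the data. Sequences came from RefSeq (GRCm38.p6) by symbol, and 26 of 43 genes matched. Counting intervals were not used, since FPKM hold no counts.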

Additional observations from a re-analysis of the deposited data

Results flagged for a closer look

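In 177 groups of 5 values tested for a single library standing apart (gap over range above Dixon's 0.71, which chance gives in about 5% of groups), 13 were found. In fat of the Glp1r line, conjugate replicate 5 had a summed network collagen level of 505 FPKM (the other 4 at 251 to 316), a turnover sum of 143 (72.8 to 86.6) and Dcn at 881 (313 to 363). That library also had a mesothelial marker score of 2.49, against at most 0.17 in the other 4. Vehicle replicate 2 of the same table, the one with the B cell score of 6.27, had a glycoprotein sum of 2760 FPKM (4140 to 4400), a crosslinking sum of 319 (505 to 542) and a sum over all 43 genes of 5180 (7440 to 7860). Knockout replicate 5 had a fibrillar collagen sum of 1190 FPKM (667 to 817). In liver of the Gipr line, knockout replicate 5 was high for Col1a1 at 1.69 FPKM (0.446 to 0.717), Col1a2 at 4.22 (1.53 to 2.28) and Col3a1 at 11.1 (3.83 to 5.35), and vehicle replicate 3 had a crosslinking sum of 20.8 (14.1 to 15.4). In liver of the Glp1r line, knockout replicate 3 had a basement membrane sum of 202 FPKM (173 to 176) and knockout replicate 5 had Mmp14 at 10.1 (6.06 to 6.98).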

How the results depend on the processing

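Counts of matrix genes called kept within 1.5 times of the reported count in 91 of 132 fits under another setting. Fits that left out 1 library are not among these. A count of 0 that stayed at 0 was taken as kept, so the 91 include comparisons with no call to lose. Named genes kept their direction and their side of the threshold in 779, were no longer called in 118 and became called in 18. The counts in this section are given without the share of all genes called in the same fit. A change in count is therefore not read as a change of matrix genes alone. Without a filter on low values the counts were 1 with the conjugate in fat of the Glp1r line, 9, 13 and 0 in fat of the Gipr line (conjugate, knockout, and conjugate against knockout), and 0 and 0 in liver of the Glp1r line (conjugate, and conjugate against knockout). A stricter minimum of 5 FPKM gave 1 in fat and 2 in liver of the Glp1r line with the conjugate, and 0 and 3 in liver of the Gipr line (conjugate and knockout). Median-of-ratios rescaling gave 1 in fat and 2 in liver of the Glp1r line with the conjugate, 0 for conjugate against knockout in fat of the Gipr line and 5 in its knockout liver. Fits on only the 2 groups compared gave 1 in fat and 6 in liver of the Glp1r line with the conjugate, and 0 for conjugate against knockout in fat of the Gipr line and in liver of the Glp1r line. Without the 5 libraries of the higher series of library numbers the counts in the Gipr line were 13 in knockout fat, 0 for conjugate against knockout fat, and 0 and 5 in conjugate and knockout liver. In fat these were conjugate and knockout replicate 5, with the highest estimated depths of that line (56.6 and 64.4 Mfragments). In liver they were conjugate replicates 4 and 5 and vehicle replicate 5. The series held no fat vehicle and no liver knockout library, so series and group are partly confounded.

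Fits that leave out or adjust for other cells or depth were, apart from the B cell score above 3, chosen after seeing the data. In fat of the Glp1r line the conjugate count was 10 without libraries above 3, 10 without those above 5 and 11 with the score as a term, and that of conjugate against knockout 2, 2 and 7. In fat of the Gipr line the conjugate count was 1 without libraries above 3 and 8 with the term, and the knockout count 9 without those above 5 and 2 with the term. Leaving out those above 3 was not run for the other Gipr comparisons in fat, since it removes all 5 knockout libraries. In liver of the Gipr line, leaving out pancreas scores above 5 gave 0 and 0, and the term gave 1 for conjugate against knockout. Depth as a term gave 0 and 0 in liver of the Glp1r line. The cause of these changes was not tested, except that excluding libraries leaves fewer samples.

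With a replicate block, where numbers are shared without evidence of pairing (correlations from -0.843 to 0.571), the conjugate counts were 1 in fat and 4 in liver of the Glp1r line and 2 in liver of the Gipr line. With the block, conjugate against knockout fat of the Gipr line gave 0, and no other count there moved by over 1.5 times. Leaving out 1 library at a time gave 1 to 8, 0 to 0 and 0 to 0 in fat of the Glp1r line (conjugate, knockout, conjugate against knockout), 6 to 21, 11 to 23 and 0 to 1 in fat of the Gipr line, 0 to 3, 0 to 0 and 0 to 6 in liver of the Glp1r line, 0 to 3, 1 to 16 and 0 to 1 in liver of the Gipr line, and 0 to 0 in both interactions. The liver interaction of Col18a1 (-0.26) ran from -0.41 without Gipr-line conjugate replicate 5 to 0.05, a change of sign, without replicate 1.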
